A study of Mus musculus with 12 samples.

Results

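The genes described here are the enzymes that break down stored triglyceride in fat, with their known partners: the lipases Pnpla2, Lipe, Mgll, Pnpla3 and Ces1d, the coactivator Abhd5, and the inhibitors G0s2 and Hilpda. They were chosen by symbol, and all 8 were found among the 27179 genes of the count table. RNA came from epididymal white adipose tissue (eWAT), the fat pad beside the epididymis, of male C57BL/6J mice on a chow diet. In the vehicle group, 6 mice had saline injected into the peritoneum; in the epinephrine group, 6 mice had epinephrine at 0.5 mg/kg by the same route, and the tissue was taken 1 h later in both. The listed ages were 12 to 17 weeks for vehicle and 18 to 23 weeks for epinephrine, so age and treatment cannot be told apart. These ages rise by exactly 1 week from each listed sample to the next, through both groups, and whether they are the mice's true ages could not be checked. Each value with listed age as a covariate rests on them. Within a group listed age follows the replicate number, and the ages of the groups do not overlap. A fit with listed age therefore cannot tell age from whatever else follows the replicate number.

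Fat cells store triglyceride in a lipid droplet and release it as fatty acids and glycerol when catecholamines raise cyclic AMP. Adipose triglyceride lipase (ATGL, from Pnpla2) removes the first fatty acid, hormone-sensitive lipase (HSL, from Lipe) then cleaves diacylglycerol, and monoglyceride lipase (from Mgll) releases glycerol and the last fatty acid. ABHD5 activates ATGL, whereas G0S2 and HILPDA bind ATGL and inhibit it. Protein kinase A acts within minutes by phosphorylating HSL and the droplet coat protein perilipin 1, a step that RNA sequencing does not measure. Transcript levels were measured here, not enzyme amount or activity.

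Promoter letters were available from RefSeq (GRCm38.p6) for 7 of the 8 members. The runs printed here are the 250 bases before an annotated start of Hilpda, the member that changed, of Pnpla2, whose product Hilpda inhibits, and of Pnpla3, which holds a full cyclic AMP response element. Capitals mark matches to the motifs searched, and each run reads 5′ to 3′ on the gene's strand. The windows are chr6:29272238-29272487 (plus strand) for Hilpda, chr7:141454938-141455187 (plus strand) for Pnpla2 and chr15:84167566-84167815 (plus strand) for Pnpla3.
Hilpda: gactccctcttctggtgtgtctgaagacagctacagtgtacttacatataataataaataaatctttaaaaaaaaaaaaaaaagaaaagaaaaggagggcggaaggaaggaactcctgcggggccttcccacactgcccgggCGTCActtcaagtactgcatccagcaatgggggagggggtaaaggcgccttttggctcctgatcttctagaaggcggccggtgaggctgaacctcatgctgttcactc
Pnpla2: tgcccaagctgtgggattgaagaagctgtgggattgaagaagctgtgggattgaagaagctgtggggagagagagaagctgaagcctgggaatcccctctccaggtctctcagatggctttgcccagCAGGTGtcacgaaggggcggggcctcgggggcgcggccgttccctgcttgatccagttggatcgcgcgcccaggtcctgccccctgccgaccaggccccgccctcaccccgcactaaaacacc
Pnpla3: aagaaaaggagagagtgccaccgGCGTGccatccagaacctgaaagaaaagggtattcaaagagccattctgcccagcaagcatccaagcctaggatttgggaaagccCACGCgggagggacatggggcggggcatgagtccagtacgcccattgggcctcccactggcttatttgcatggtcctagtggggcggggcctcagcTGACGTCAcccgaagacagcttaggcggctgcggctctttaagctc

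The capitals in the Hilpda run are CGTCA, 108 to 104 bases before the start, which is the short cyclic AMP response core TGACG read on the other strand. This core was present in 17.8% of 32851 mouse promoter windows of this length, so it is a common match. Hilpda has another annotated start downstream, and the 250 bases before that one hold 3 hypoxia response cores (ACGTG or GCGTG, present on either strand in 38.6% of windows) and 2 of the short cyclic AMP response cores, of which the upstream match is the same CGTCA. Members that did not pass the test also held hypoxia core matches, 4 and 7 in the 2 windows of Mgll and 3 in a window of Lipe. Abhd5 and G0s2 held 1 each. In the Lipe window and the Mgll window with 4, CACGTG was counted as 2 overlapping matches, 1 on each strand. The capitals in Pnpla2 are CAGGTG, 123 to 118 bases before the start, the E-box CACCTG read on the other strand, which 17.2% of windows hold and which G0s2 also holds. In Pnpla3 the capitals nearest the start are the full cyclic AMP response element TGACGTCA, 46 to 39 bases upstream, which contains the short core on both strands and was present in 1.55% of windows. Its other capitals are 2 hypoxia cores. No window of these 7 members held the PPAR repeat (AGGTCA, any base, AGGTCA), which 0.0335% of windows hold. The FOXO motif GTAAACA (3.17% of windows) was matched in 1 window each of Lipe and Mgll, and the EGR motif GCGTGGGCG (0.536% of windows), which contains a hypoxia core, in 1 window of Lipe. These are letter matches within short windows and were not measured as binding.

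Libraries held between 24821601 and 34405433 reads assigned to genes. All 12 adipocyte markers were detected, and their summed level ran from 17470 to 54130 counts-per-million units (CPM) with vehicle and from 21950 to 52030 with epinephrine. None of the 12 passed the test for a change, while with listed age as a covariate 3 were called lower. That fit called 1528 of all 16175 genes tested lower. Libraries differed in RNA of the neighbouring epididymis: the 19 measured epididymis and testis genes summed to between 11.91 and 51370 CPM with vehicle and between 37.72 and 37030 with epinephrine. The epididymal gene Gpx5 took 1.98% of counts in vehicle 2, 1.09% in epinephrine 1 and 0.93% in epinephrine 2, and at most 0.398% in the other libraries. Vehicle 2 and epinephrine 1 also had the lowest adipocyte scores (mean log2 CPM of the 12 adipocyte markers), 9.59 and 9.91, against 10.57 to 11.20 elsewhere. In bulk tissue, fewer cells of a type and less RNA per cell cannot be told apart.

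The lipase transcripts stood far above that of the inhibitor Hilpda. Per gene length, as CPM per kilobase (RPKM), Pnpla2 averaged 929 ± 349 with vehicle (SD, n = 6), which placed it 34th of the 16175 genes tested. Ces1d (597 ± 167) and Lipe (541 ± 198) followed at ranks 71 and 81. Mgll averaged 277 ± 79.8 RPKM, Pnpla3 115 ± 54.7 and Abhd5 59.4 ± 20.9. Hilpda averaged 7.08 ± 1.67 RPKM and ranked 8156th. G0s2 was almost unread: no library held more than 5 reads for it, and 4 of the 12 held 0. Within libraries the order was the same in all 6 vehicle and all 6 epinephrine libraries for every pair of neighbours except Ces1d and Lipe. Ces1d was above Lipe in 4 of 6 vehicle libraries and in 1 of 6 epinephrine libraries, so these neighbours did not differ beyond their spread.

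**Figure D1:**
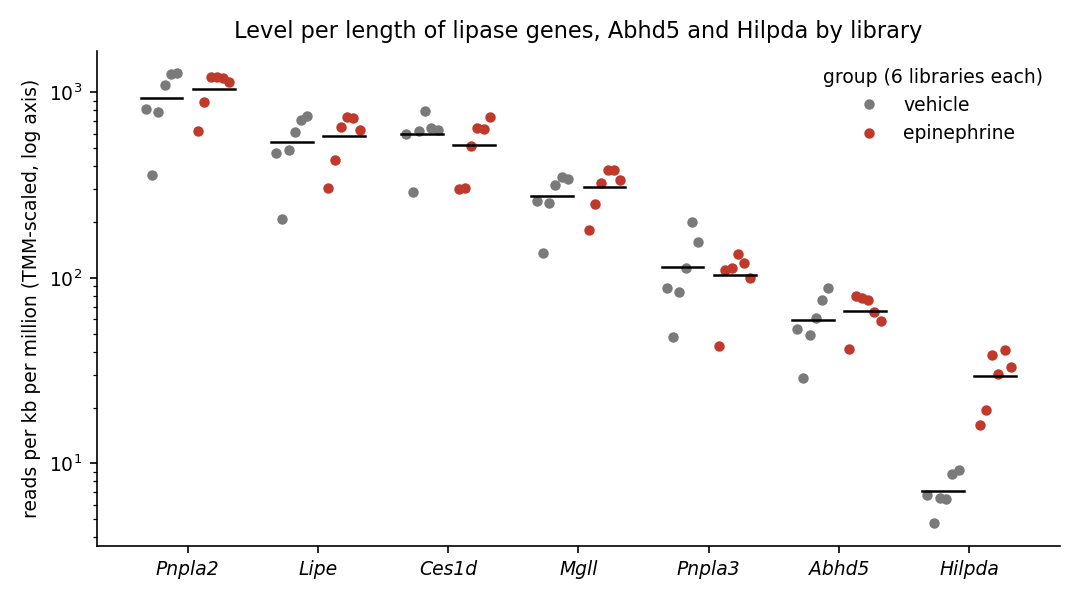
Level per gene length (RPKM on a log axis) of 7 members, 1 point per library and a bar at the mean of each group of 6. Hilpda is the only gene drawn whose 2 groups do not overlap; G0s2, with at most 5 reads in a library, is not drawn.

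Of the 8 members, 7 passed the filter on low counts, and 1 of these, Hilpda, was higher with epinephrine (edgeR quasi-likelihood test, adjusted p under 0.05). None was lower, also at an unadjusted p under 0.05 or with DESeq2; with listed age as a covariate Hilpda was not called and Ces1d was called lower. Across all genes tested, 2.65% were called higher and 3.58% lower. With listed age as a covariate, 2339 of all 16175 genes were called higher and 1528 lower. Because ages differ between groups, these counts hold for treatment and listed age together.

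ATGL, the enzyme that starts triglyceride breakdown, is encoded by Pnpla2 (chromosome 7, 141455188 to 141460743, GRCm38.p6). Its lowest, median and highest levels were 973, 2599 and 3450 CPM with vehicle and 1675, 3183 and 3301 CPM with epinephrine. The ranges overlapped, with vehicle 2 and epinephrine 1 the lowest of their groups. The log2 fold change (epinephrine minus vehicle) was 0.17 (SE 0.29, 95% interval -0.46 to 0.80, adjusted p = 0.885 by edgeR).

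HSL comes from Lipe (chromosome 7, 25379527 to 25398486), which overlaps the annotated lncRNA 4732471J01Rik. The 6 vehicle libraries ran from 683 through a median of 1803 to 2450 CPM, and the epinephrine libraries from 1001 through 2085 to 2403 CPM. Every epinephrine value lay inside the vehicle range. Its log2 difference was 0.10 (SE 0.30, 95% interval -0.56 to 0.77, edgeR adjusted p = 0.941).

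Monoglyceride lipase, which completes the sequence, is encoded by Mgll (chromosome 6, 88724412 to 88828360), within whose span lies part or all of the lncRNA Gm26588. Vehicle libraries held 633, 1339 and 1622 CPM (lowest, median, highest) and epinephrine libraries 844, 1540 and 1768 CPM. Its log2 difference was 0.16 (SE 0.24, 95% interval -0.37 to 0.70, edgeR adjusted p = 0.863). Across Pnpla2, Lipe and Mgll the intervals reached no lower than -0.56 and no higher than 0.80 on the log2 scale.

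Pnpla3 encodes adiponutrin, a relative of ATGL that binds ABHD5 and is known to follow the feeding state. Its gene (chromosome 15, 84167776 to 84189521) overlaps Mir6392 and the pseudogene Gm20369. Vehicle libraries ran from 223 through a median of 466 to 926 CPM, and epinephrine libraries from 201 through 519 to 628 CPM. Its log2 difference was -0.14 (SE 0.34, 95% interval -0.89 to 0.60, edgeR adjusted p = 0.925), the widest interval among the tested members. The full cyclic AMP response element printed earlier is a letter match before this gene, and its part in the level of Pnpla3 was not tested.

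Ces1d encodes a carboxylesterase that hydrolyses triglyceride (chromosome 8, 93166072 to 93197804). Vehicle libraries held 571, 1234 and 1572 CPM and epinephrine libraries 591, 1126 and 1457 CPM at the lowest, median and highest. Its log2 difference was -0.19 (SE 0.28, 95% interval -0.81 to 0.42, edgeR adjusted p = 0.854), and with listed age as a covariate it was -1.40 (SE 0.46) and passed the threshold (edgeR adjusted p = 0.0481). Ces1d belongs to a cluster of close copies, and how reads shared between them were counted is not given in the sources used here, so its level is uncertain. Among those copies, Ces1f averaged 163 ± 39.3 CPM in vehicle and 128 ± 48.6 CPM in epinephrine libraries (SD, n = 6 each), while Ces1c, Ces1e and Ces1g fell below the filter on low counts.

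ABHD5, the ATGL coactivator also called CGI-58, is encoded on chromosome 9 (122351616 to 122381524). Abhd5 ran from 90.9 through a median of 180 to 278 CPM with vehicle, and from 130 through 224 to 253 CPM with epinephrine. The ranges overlapped, and the log2 difference was 0.17 (SE 0.25, 95% interval -0.38 to 0.71, edgeR adjusted p = 0.862).

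HILPDA, a small lipid droplet protein whose gene is a known target of hypoxia-inducible factors, was the member that rose. Hilpda (chromosome 6, 29272488 to 29275449) read 7.47, 5.27, 7.17, 7.10, 9.76 and 10.2 CPM in vehicle 1 to 6, and 17.7, 21.5, 42.5, 33.8, 45.3 and 36.6 CPM in epinephrine 1 to 6. The lowest epinephrine library was above the highest vehicle library; 4.79% of all genes tested had groups that did not overlap. The mean rose from 7.83 ± 1.84 to 32.9 ± 11.1 CPM (SD, n = 6 each), a fold of 4.20 and a log2 fold change of 2.07 (SE 0.25, 95% interval 1.52 to 2.62, edgeR adjusted p = 0.000622). These levels rest on 146 to 346 reads per vehicle library and 477 to 1136 per epinephrine library. Among all tested genes its rank by RPKM moved from 8156 to 2659, yet at 29.7 ± 10.1 RPKM it stayed below Abhd5 (66.7 ± 15.0) in every library. The 2 lowest epinephrine values were those of the libraries rich in Gpx5; without the 3 such libraries the log2 difference was 2.25 (SE 0.15, edgeR adjusted p = 2.92e-05). With listed age as a covariate it was 0.97 (SE 0.36) and the call was lost (edgeR adjusted p = 0.0679); that fit called all 19 epididymis and testis genes higher. From numbers 1 to 3 alone Hilpda was at 2.05 with an adjusted p of 0.260 (edgeR).

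G0S2, the other ATGL inhibitor and a protein known to be abundant in fat, is encoded on chromosome 1 (193272160 to 193273188), where no other RefSeq gene overlaps it. G0s2 had 10 reads summed over the 6 vehicle libraries and 10 summed over the 6 epinephrine libraries, with 0 to 5 in any library. From so few reads no level and no change of G0s2 could be measured, and no fold is given. A mean of 1.67 reads per library in each group lies under a floor of 3 reads, which vehicle 6 (4 reads) and epinephrine 2 (5 reads) exceed. Why it was so little read in tissue with all 12 adipocyte markers present was not tested. The comparison of lipases with inhibitors therefore rests on Hilpda alone.

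**Figure D2:**
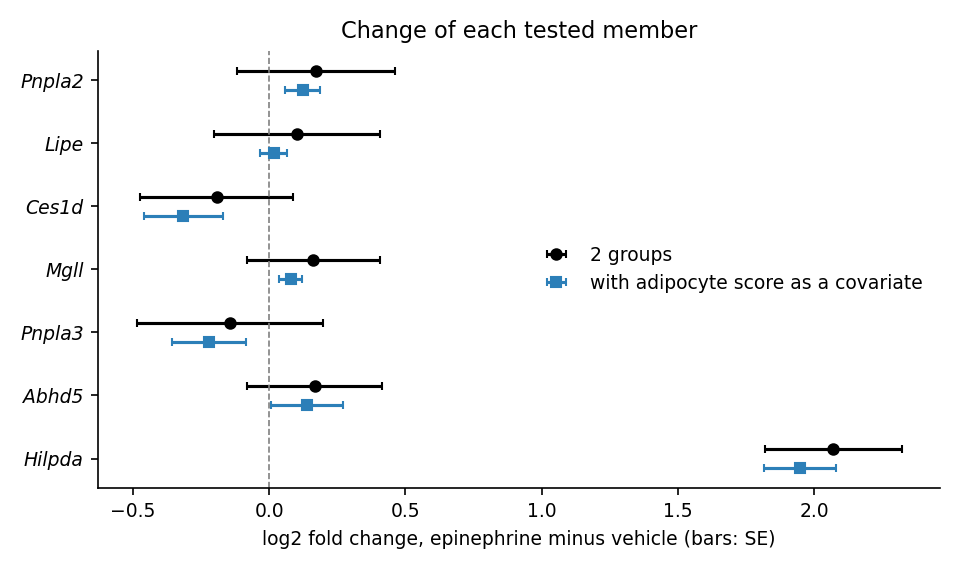
Log2 fold change (epinephrine minus vehicle, horizontal axis) of the 7 tested members with bars of 1 SE, from the 2-group fit (circles) and with the adipocyte score as a covariate (squares). Hilpda sits at 2.07 and 1.95; the other 6 lie between -0.31 and 0.17 in both fits.

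Ratios taken within a library do not depend on how libraries are scaled. Per length, the median library held 129 Pnpla2 reads for each Hilpda read with vehicle (range 74.6 to 170) and 36.4 with epinephrine (29.3 to 45.5). The lowest vehicle ratio stood above the highest epinephrine ratio. On the log2 scale of CPM, the mean ratio of Pnpla2 to Hilpda moved from 8.25 ± 0.40 to 6.47 ± 0.23 (SD, n = 6 each), a difference of -1.77 (exact two-sided permutation test, p = 0.00216, the smallest this design allows, adjusted p = 0.00433 over 12 planned pairs). For Lipe the median ratio per length moved from 78.0 to 19.0, a log2 difference of -1.87, and for Mgll from 38.6 to 10.8, a difference of -1.84. Ces1d moved from 80.2 to 17.2 (-2.24 on the log2 scale). Pnpla3 moved from 14.9 to 2.98 (-2.10) and Abhd5 from 8.21 to 2.27 (-1.80). Groups did not overlap in any of the 6 ratios, each with the same exact permutation p and adjusted p as Pnpla2. All 6 share Hilpda as denominator, so they are not independent of one another or of the rise of Hilpda. The 6 planned pairs with G0s2 were not computed.

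**Figure D3:**
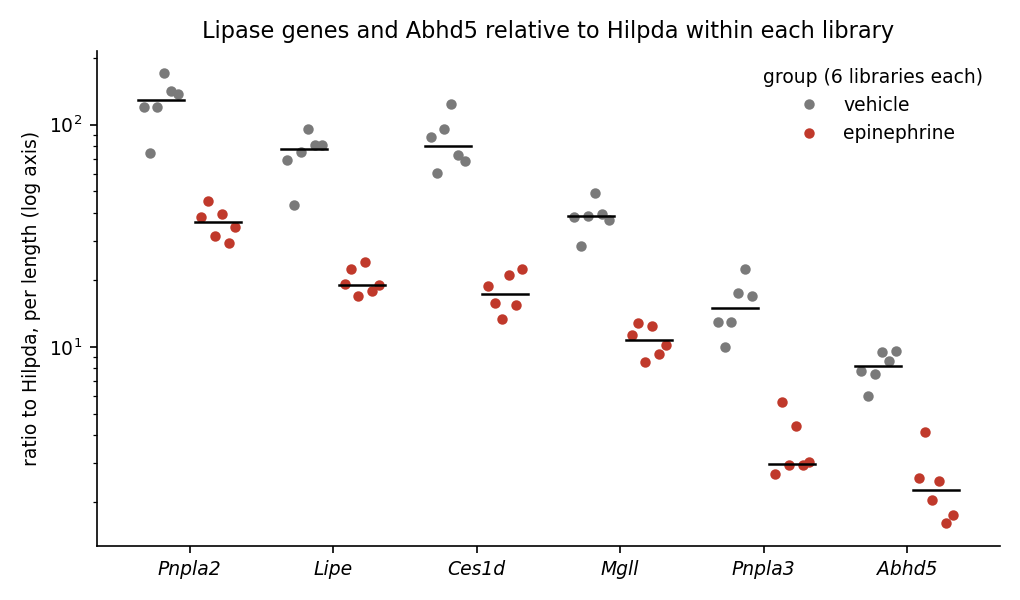
Ratio of each lipase gene and of Abhd5 to Hilpda within a library, per gene length on a log axis, with 1 point per library and a bar at the median of each group of 6. Each epinephrine group lies below its vehicle group, for Pnpla2 at 29.3 to 45.5 against 74.6 to 170.

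With the sign of the difference flipped within replicate numbers taken as pairs, each of these ratios had an exact p of 0.03125, the smallest that 6 pairs allow, and an adjusted p of 0.0625. Without the 3 libraries rich in Gpx5 the Pnpla2 to Hilpda difference was -2.02 (exact permutation test, adjusted p = 0.0159).

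The lipases spread less once set against the adipocyte score. Within the vehicle group the SD of log2 CPM was 0.69 for Pnpla2, 0.68 for Lipe and 0.51 for Mgll, and after subtraction of each library's adipocyte score it was 0.11, 0.10 and 0.09. With epinephrine the SD of Pnpla2 went from 0.39 to 0.10 and that of Lipe from 0.50 to 0.08. The SD of Pnpla3 went from 0.73 to 0.25 with vehicle and from 0.60 to 0.25 with epinephrine, and that of Ces1d from 0.50 to 0.26 and from 0.57 to 0.28. For Hilpda the SD went from 0.35 to 0.31 with vehicle and from 0.55 to 0.22 with epinephrine. That of the coactivator Abhd5 went from 0.565 to 0.136 with vehicle, but only from 0.367 to 0.349 with epinephrine. Relative to the score, Hilpda still differed by 1.90 on the log2 scale with no overlap between groups, while Pnpla2 differed by 0.12, Lipe by 0.03 and Mgll by 0.06 with overlap. Ces1d differed by -0.339, Pnpla3 by -0.205 and Abhd5 by 0.094, also with overlap.

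With the score as a covariate the edgeR fit was more precise: Pnpla2 was at 0.12 (SE 0.06, adjusted p = 0.195), Lipe at 0.02 (SE 0.05, adjusted p = 0.840) and Mgll at 0.08 (SE 0.04, adjusted p = 0.202). Ces1d was at -0.31 (SE 0.15) and Pnpla3 at -0.22 (SE 0.14), with adjusted p of 0.153 and 0.272 in the same edgeR fit. Abhd5 was at 0.14 (SE 0.13, edgeR adjusted p = 0.481). Hilpda was at 1.95 (SE 0.13, edgeR adjusted p = 6.87e-06). The adipocyte markers hold no member of the set, but Cidec, Plin1 and Fabp4 are droplet or fatty acid proteins of the same cells.

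**Figure D4:**
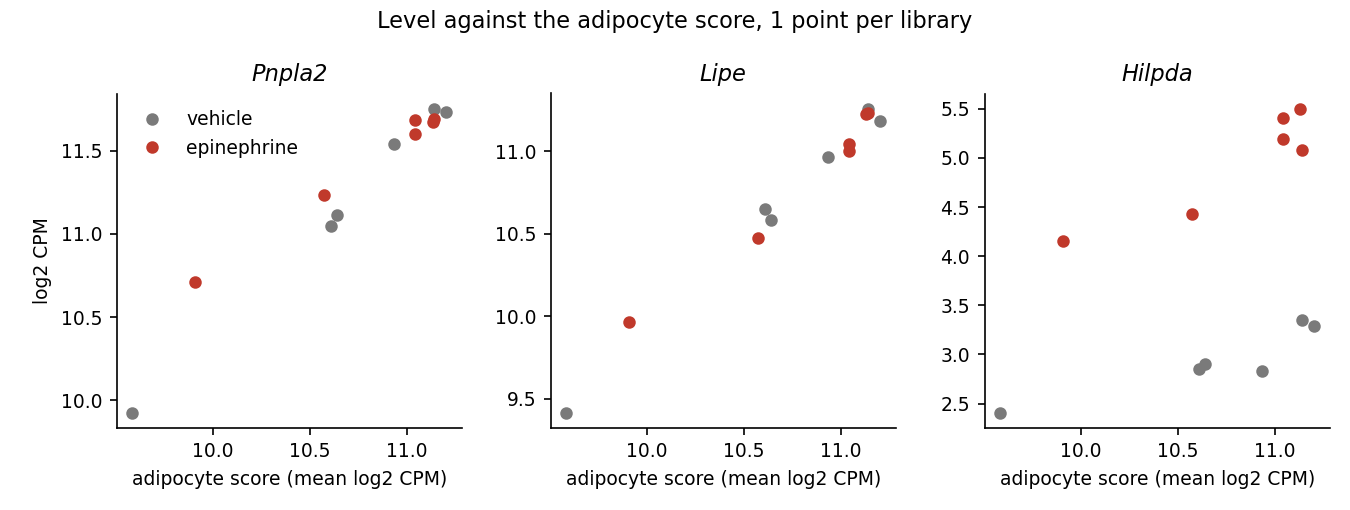
Log2 CPM of Pnpla2, Lipe and Hilpda (vertical axes) against the adipocyte score, the mean log2 CPM of 12 adipocyte markers (horizontal axis), 1 point per library. Vehicle and epinephrine libraries share one band for Pnpla2 and Lipe, and lie in separate bands for Hilpda, whose difference relative to the score was 1.90.

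The genes whose log2 CPM most resembled that of Pnpla2 over the 12 libraries were Fitm2 (Pearson r = 0.997, Spearman rho = 1), Ech1 (0.993 and 0.909), Pex13 (0.993 and 0.979), Cidec (0.991 and 0.909) and Acp5 (0.989 and 0.986). None of these 5 passed the test for a change with epinephrine. Those most like Hilpda were Ndel1 (0.992 and 0.972), Ppp2ca (0.991 and 0.930), Noct (0.990 and 0.972), Srf (0.989 and 0.958) and Ifrd1 (0.989 and 0.951). All 5 rose, by log2 fold changes from 0.73 for Ndel1 to 2.06 for Ifrd1 (edgeR adjusted p from 0.000762 to 0.00282). Within groups their r with Hilpda ran from 0.902 to 0.981 with vehicle and from 0.946 to 0.989 with epinephrine. These are the highest of all correlations computed, taken over both groups. Whether these genes rose or not therefore follows largely from how they were picked. The correlations are a description, since the libraries also share tissue makeup.

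The calls in the lists around the members differed once listed age was a covariate. Over all 16175 genes tested, that fit called 2339 higher and 1528 lower, the counts to set beside its list calls. It cannot tell age from replicate number or from the tissue makeup that follows the number. With age as a covariate the calls (higher and lower) became 6 and 3 for other lipases and esterases, 0 and 1 for droplet proteins, 2 and 2 for signalling, 1 and 7 for transcription factors, 3 and 0 for hypoxia targets and 1 and 0 for PPAR responsive genes; the values that follow are without it. Of the genes named from these lists and the marker lists, Irs2, Pde4d, Irf4, Snai1 and Pdk4 kept their calls and directions with age, while Plin2, Adra2a, Cebpb, Egr1, Hif1a, Vegfa, Slc2a1, Pgk1, Acot2 and Cldn5 lost theirs (edgeR adjusted p from 0.0729 for Slc2a1 to 0.920 for Cldn5). The genes that lost their calls with age passed in DESeq2 and without the libraries rich in Gpx5. They also passed with the replicate number as a block, Cldn5 closest to the threshold (edgeR adjusted p = 0.0497). The 3 hypoxia targets called with age were other genes, Pdk1, Mxi1 and Pfkfb4. Of 27 other lipases and esterases, 21 were tested and none passed in either direction in edgeR, at an unadjusted p under 0.05, or in DESeq2, while limma-voom called 1 higher. The list had a median log2 fold change of -0.02 against -0.00059 for all genes. Lipoprotein lipase (Lpl), which releases fatty acids from circulating triglyceride, averaged 5840 ± 2382 CPM in vehicle and 6654 ± 1985 CPM in epinephrine libraries (SD, n = 6 each). The lysosomal lipase Lipa averaged 95.2 ± 19.7 and 93.7 ± 21.7 CPM. Among the 21 tested, the largest difference was that of Aadac, a low gene at 0.90 and 2.27 CPM, with a log2 fold change of 1.34 (SE 0.66, edgeR, adjusted p = 0.339); it is the gene that limma-voom called (2.57, adjusted p = 0.0257).

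The shares called in each list can be read against the 2.65% higher and 3.58% lower over all genes; in the fit without the libraries rich in Gpx5 the count over all genes also grew, from 428 to 786 higher. Of 22 lipid droplet proteins and lipase partners, 1 rose and none fell, with a median of 0.12. Plin2, a droplet coat protein found in many cell types, went from 206 ± 60.0 to 598 ± 172 CPM, without overlap of the groups (a log2 difference of 1.53, SE 0.27, edgeR adjusted p = 0.00578). Plin1, the adipocyte coat protein that holds ABHD5 at rest, stood at 1769 ± 614 and 1779 ± 631 CPM. Without the libraries rich in Gpx5, 3 genes of the list were higher. Lpl, Lipa, Aadac and Plin1 were picked as examples with their values known.

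Among 29 genes of the signalling that controls lipolysis, 3 rose and 1 fell, with a median of 0.09. Irs2, an adaptor of the insulin receptor, went from 76.5 ± 17.6 to 301 ± 80.8 CPM (1.98 on the log2 scale, SE 0.21, edgeR adjusted p = 0.000345). Pde4d, a phosphodiesterase that degrades cyclic AMP, went from 9.80 ± 1.32 to 18.1 ± 2.12 CPM (0.88, SE 0.11, edgeR adjusted p = 0.000600). Adra2a, the alpha-2A receptor that restrains cyclic AMP, fell from 3.35 ± 0.83 to 1.23 ± 0.48 CPM (-1.44, SE 0.27, edgeR adjusted p = 0.00788). The groups of Irs2, Pde4d and Adra2a did not overlap. Adrb3, the main beta receptor of mouse fat cells, averaged 1123 ± 351 and 1058 ± 362 CPM and did not pass the test (edgeR adjusted p = 0.950). It too was picked with its value known.

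Of 18 transcription factors known to act on lipase or inhibitor genes, 4 rose and 1 fell, with a median of -0.02. Irf4, a factor known to promote lipase genes in fasting, went from 22.3 ± 7.16 to 325 ± 87.9 CPM (a log2 difference of 3.86, SE 0.27, edgeR adjusted p = 2.37e-05). Egr1, known to repress Pnpla2, went from 171 ± 109 to 1228 ± 428 CPM (2.85, SE 0.48, edgeR adjusted p = 0.00482), and the adipogenic factor Cebpb from 88.4 ± 32.9 to 263 ± 62.8 CPM (1.57, SE 0.26, edgeR adjusted p = 0.00473). Hif1a, a hypoxia-inducible factor subunit, went from 96.1 ± 7.06 to 120 ± 7.22 CPM (0.32, SE 0.06, edgeR adjusted p = 0.00987). Snai1, known to repress Pnpla2 through E-boxes, fell from 9.05 ± 2.96 to 3.69 ± 0.69 CPM (-1.29, SE 0.21, edgeR adjusted p = 0.00397). With listed age as a covariate Irf4 was at 3.68 and Snai1 at -1.76, both past the threshold, and Egr1 was at 0.87 and was not (edgeR adjusted p = 0.344).

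Lists of hypoxia targets and of PPAR and fatty acid responsive genes were counted because Hilpda is a known member of both classes. Of 21 hypoxia targets, 3 rose and none fell, with a median of 0.22. The angiogenic factor Vegfa went from 334 ± 38.9 to 808 ± 252 CPM (a log2 difference of 1.27, SE 0.20, edgeR adjusted p = 0.00318), and the glucose transporter Slc2a1 from 16.4 ± 2.23 to 24.4 ± 2.77 CPM (0.57, SE 0.10, edgeR adjusted p = 0.00707). The glycolytic enzyme Pgk1 had a log2 fold change of 0.25 (SE 0.05, edgeR adjusted p = 0.0138). Without the libraries rich in Gpx5, 6 of the list were higher. The other 18 did not pass, among them Ldha at 487 ± 163 and 566 ± 139 CPM, picked with its value known. At an unadjusted edgeR p under 0.05, 6 of the list were higher and 0 lower, against 1024 and 1765 of all 16175 genes. DESeq2 called 4 of the list higher and limma-voom 6, against 760 and 1026 over all genes.

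Of 18 PPAR and fatty acid responsive genes, 17 were tested, and 3 rose and none fell, with a median of 0.10. Pdk4, the kinase that restrains pyruvate oxidation, went from 53.4 ± 17.2 to 233 ± 56.8 CPM (a log2 difference of 2.13, SE 0.25, edgeR adjusted p = 0.000550). Acot2, a mitochondrial acyl-CoA thioesterase, went from 16.4 ± 2.39 to 39.1 ± 11.4 CPM (1.25, SE 0.19, edgeR adjusted p = 0.00265), and Plin2 is the third. Without the libraries rich in Gpx5, 5 were higher. Among markers of other cells, none of 10 macrophage, 6 tested neutrophil, 9 fibroblast, 8 mesothelial and 19 epididymal genes passed in edgeR, and 1 of 8 endothelial genes, Cldn5, rose (1.06, SE 0.26, edgeR adjusted p = 0.0355). With listed age as a covariate, 4 macrophage genes and 1 other endothelial gene were called lower, and 2 mesothelial and all 19 epididymal genes higher. Over all 16175 genes that fit called 2339 higher and 1528 lower. The macrophage gene Cd14 lay at the threshold, at 43.3 ± 22.5 and 106 ± 31.7 CPM (1.29, SE 0.35, edgeR adjusted p = 0.0502). It passed with the replicate block (edgeR adjusted p = 0.0218), without the libraries rich in Gpx5 (edgeR adjusted p = 0.0170), and in DESeq2, limma-voom and limma on the variance-stabilized values (adjusted p of 0.00349, 0.00109 and 0.0373), but not with listed age (edgeR adjusted p = 0.596). The summed macrophage level was 859 to 1886 CPM with vehicle and 828 to 2282 CPM with epinephrine. The summed endothelial level was 635 to 1539 CPM with vehicle and 745 to 1565 CPM with epinephrine, and its part in these results was not tested.

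**Figure D5:**
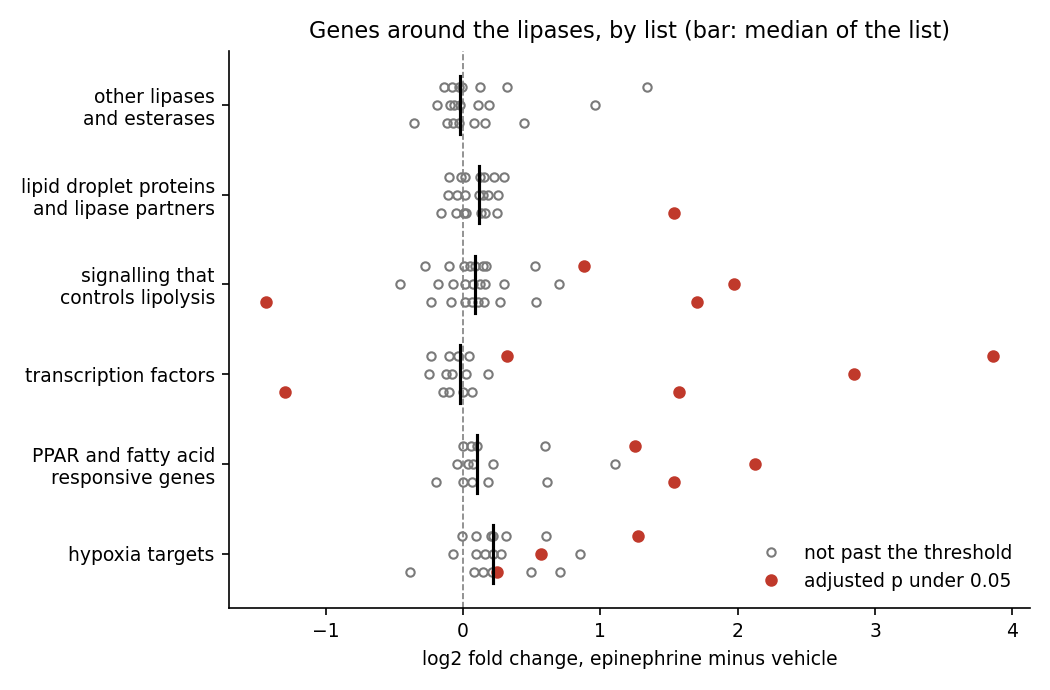
Log2 fold change (epinephrine minus vehicle, horizontal axis) of every tested gene in 6 lists, with filled points past an adjusted p of 0.05 and a bar at the list's median. Other lipases and esterases hold no filled point, and the medians lie between -0.02 and 0.22.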

How the data were processed

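Per the labels' protocols, RNA was isolated with TRIzol and an RNeasy kit, and SMARTER mRNA-Seq libraries were prepared. HISAT2, featureCounts, cutadapt, FastQC and DESeq2, with mm10, stand in the submitters' processing notes. Versions, annotation and strand setting were not found there, so reads of a gene and of one overlapping it on the other strand may not be kept apart. The authors deposited whole-number counts per gene, not normalized, with gene lengths in bases, and variance-stabilized values on a log2-like scale, per the file headers.

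Counts were filtered (filterByExpr, minimum count 10, minimum total 15), scaled by TMM and tested with edgeR 4.0.16 (glmQLFit with robust dispersion, glmQLFTest; limma 3.58.1, R 4.3.3). The 16175 tested genes had p-values adjusted together by Benjamini-Hochberg, with a threshold of 0.05. The SE is the unshrunk log2 fold change divided by the square root of F. CPM are TMM-scaled, log2 CPM use a prior count of 1, and RPKM divide CPM by the deposited length in kilobases. Ratios were tested by exact two-sided permutation over libraries. The mean of G0s2 was under a floor of 3 reads per library in both groups, so the planned fold and ratios for it were left out. Sequences and positions are RefSeq's (GRCm38.p6), and motifs were searched on both strands. The fit was tested on simulated counts.

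The labels call the samples biological replicates and give each a number. Deviations of same-numbered libraries from their group means correlated across genes at 0.387, 0.799, 0.262, 0.655, 0.483 and 0.673 for numbers 1 to 6, all above 0.1. The numbers were therefore treated as pairs in an alternative fit with the number as a block. Same-numbered libraries were mostly not the best match: vehicle 1 to 6 correlated most with epinephrine 3, 1, 2, 4, 4 and 4. In the other direction, epinephrine 1 to 6 correlated most with vehicle 2, 2, 1, 5, 6 and 6. Whether the numbers mark true pairs was not tested. Numbers 1 to 3 and 4 to 6 also differ together in both groups. Further alternatives changed the scaling (library size, RLE, upper quartile), the filter (none, or a mean CPM of at least 1), the prior count of the ratios (0.25 or 5), the tool (DESeq2 1.42.0, voom with weights, limma on the variance-stabilized values), the covariates (listed age, epididymal score, adipocyte score), the libraries (each left out, subsets) or the threshold (0.01). The epididymal score averages log2 CPM over the epididymis and testis genes. The members and lists were chosen with earlier results of these data known. Named are all members, up to 4 called genes per list by the smallest p (all 5 where a list had 5), and the 5 tested genes most correlated with Pnpla2 and with Hilpda; others are examples marked as such, or Cd14, Pdk1, Mxi1 and Pfkfb4, named with their values known. A called gene that this rule also names is not reported here.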

Additional observations from a re-analysis of the deposited data

Results flagged for a closer look

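In 4 of 26 groups of 6 values tested, 1 library stood apart from the rest of its group by Dixon's ratio, and all 4 were groups of log2 CPM. Chance alone does so in about 1 group in 20 where groups are independent. The groups here share libraries and are not independent. Vehicle 2 was the lowest of its group for Lipe, at 9.42 against 10.58 for the next library, for Mgll, at 9.31 against 10.19, and for Ces1d, at 9.16 against 10.19. Epinephrine 1 was the lowest of its group for Pnpla3, at 7.65 against 8.86. Both libraries are among the 3 with Gpx5 above 0.5% of counts and had the lowest adipocyte scores of their groups, 9.59 and 9.91; the part of this in the low values was not tested.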

How the results depend on the processing

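Hilpda was called higher in 26 of 28 alternatives, of which the threshold of 0.01 reuses the main fit. Its log2 fold change was above 0 in all 28. The call was lost with listed age as a covariate (0.97, edgeR adjusted p = 0.0679) and from numbers 1 to 3 alone (2.05, edgeR adjusted p = 0.260). In both, 0 members were called higher in place of 1, and numbers 1 to 3 alone gave no call for any gene. On the variance-stabilized scale the difference of Hilpda was 1.36, and without each library in turn it ran from 1.96 to 2.20. With listed age, 1 member was called lower, Ces1d (-1.40, edgeR adjusted p = 0.0481). Pnpla3 kept its sign and lay close to the threshold without passing (-1.51, SE 0.53, edgeR adjusted p = 0.0578). Pnpla2 (-0.98), Lipe (-1.22, edgeR adjusted p = 0.0652), Mgll (-0.88) and Abhd5 (-0.58) changed sign without passing. Other sign changes, none past the threshold, were Pnpla2 at -0.026 and Abhd5 at -0.17 from numbers 4 to 6, Lipe at -0.00061 with library size alone, a scaling that moved the median of all genes to -0.108, and Pnpla3 at 0.020 with voom, 0.049 with the epididymal score and 0.30 from numbers 1 to 3. Leaving out 1 library gave Lipe from -0.042 (without vehicle 2) to 0.23, and Pnpla3 from -0.28 to 0.085 (without vehicle 5), with 0.014 without epinephrine 1; Pnpla2 ran from 0.027 (without vehicle 2) to 0.28 (without epinephrine 1), Mgll from 0.045 to 0.28 (the same libraries), Abhd5 from 0.051 (without vehicle 2) to 0.31 (without vehicle 6) and Ces1d from -0.32 (without epinephrine 6) to -0.075 (without vehicle 4), none past the threshold. The replicate block gave 2.03 for Hilpda (edgeR adjusted p = 0.00161) and changed no member's call; sign flips within the block left the Pnpla2 to Hilpda difference at -1.77 with an adjusted p of 0.0625, and 3 against 3 libraries gave -1.43 (numbers 1 to 3) and -2.12 (4 to 6), each with an adjusted p of 0.2, where an exact permutation p cannot fall below 0.1. Across all genes, 428 higher and 579 lower became 760 and 873 with DESeq2, 1026 and 1503 with voom, 2339 and 1528 with age, 679 and 973 with the epididymal score, 1160 and 1824 with the adipocyte score, 786 and 1028 without the libraries rich in Gpx5, 0 and 0 from numbers 1 to 3, and 228 and 185 at 0.01. The higher count was 696 from numbers 4 to 6, and the lower count 1466 with library size and 365 with the block; without vehicle 1, 3 or 4 or epinephrine 3, 4 or 5 it was 276 to 373. The cause of these differences was not tested. No fold or ratio of G0s2 is given, since its 0 to 5 reads per library limit it.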
